A study of Homo sapiens with 8 samples.

Results

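The genes described here carry the response to interferon and the JAK-STAT pathway that transmits it. They are the rows of the deposited count files with 42 listed symbols, out of 56832 gene rows, and all 42 were found. By role, 19 are receptors, kinases and transcription factors of the pathway with their SOCS feedback inhibitors (called factors below), and 23 are interferon-stimulated genes, the genes the pathway switches on. RNA was sequenced from Nthy-ORI, an immortalised human thyroid epithelial cell line, in 8 libraries. All cultures spent 24 h without hormone, in medium free of phenol red and with charcoal-stripped serum. They then received 10 nM T3, the active thyroid hormone, or its NaOH vehicle, for 6 h or for 24 h, with 2 libraries in each of the 4 groups. All groups share this 1 line, and the labels do not tie the libraries of a group to separate cultures. The p-values therefore reflect only how much these libraries vary, which may be technical.

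Interferons are secreted proteins, and cells release those of type I when they sense viral nucleic acid. Type I interferons bind IFNAR1 and IFNAR2, which act through the kinases JAK1 and TYK2 and a complex that holds STAT2 and IRF9, and this complex binds a DNA element called ISRE. Type II interferon binds IFNGR1 and IFNGR2, acts through JAK1 and JAK2, and works through an element called GAS. The stimulated genes encode antiviral proteins, among them the IFIT and IFITM families, the OAS enzymes and the RNA sensors DDX58 (RIG-I) and IFIH1 (MDA5).

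The libraries held 2517983 to 8201606 counts in genes, and the 6 h and 24 h libraries stood apart. Correlations of log CPM over genes were 0.958 to 0.986 for the 12 pairs of libraries of the same time and 0.687 to 0.769 for the 16 pairs of different times. The share of the counted reads that lay in genes was 12.9% to 17.1% at 6 h and 19.5% to 24.4% at 24 h. At 6 h it was 12.9% and 15.4% with vehicle and 16.5% and 17.1% with T3. At 24 h, as labelled, it was 19.5% and 21.7% with vehicle and 22.8% and 24.4% with T3. Reads that align to several places made up 57.1% and 56.3% with vehicle and 47.6% and 49.97% with T3 at 24 h. At 6 h their shares overlapped (67.4% and 62.6%, and 63.6% and 61.2%). The part of these shares in the T3 comparisons was not tested. KLF9, a gene that T3 is known to raise, was higher with T3 at 6 h (fitted log2 fold change 3.95) and lower in the libraries labelled T3 at 24 h (-3.08). HR, another such gene, had log2 fold changes of 0.77 and -4.19, the latter on 3 counts in the libraries labelled T3 (a 20.4-fold ratio, 95% counting interval 6.54 to 102). The 24 h groups are therefore named as labelled throughout, and whether their labels were exchanged was not tested. An exchange would turn the sign of every value of T3 against vehicle at 24 h given below, and would give other values for the differences between the 2 responses and for the changes over time within a treatment. Of 12 markers of thyroid follicular cells 7 stayed under 1 CPM in every library, DUOXA2 and IYD were at 0 everywhere, and TG, TSHR and NKX2-1 were at or near 0. Their summed level was 27.2 to 43.2 CPM at 6 h and 149 to 193 CPM at 24 h, mostly PAX8 at 24 h. Markers of mesenchyme summed to 1809 to 2670 CPM at 6 h and 9193 to 11094 CPM at 24 h, a rise mostly of FN1 and COL1A1. Other genes of this list did not rise with them. VIM measured 1566 to 1923 CPM at 6 h and 919 to 1068 CPM at 24 h. FAP, LUM and DCN were at 0 at 24 h, and COL3A1, PDGFRA and THY1 were at or near 0 in every library. Markers of epithelium summed to 1074 to 1244 CPM at 6 h and 408 to 576 CPM at 24 h. Those of liver and gut summed to 2849 to 3573 CPM and 9.98 to 14.8 CPM, nearly all of it CPS1. Of 13 markers of immune cells, which respond strongly to interferon, 8 stayed under 1 CPM in every library and 5 (CD3E, CD3D, MS4A1, CD79A and NKG7) were at 0. The list summed to 50.5 to 58.4 CPM at 6 h and 2.93 to 4.05 CPM at 24 h, with CSF1R at 47.3 to 55.5 CPM and under 1 CPM. CPS1 measured 2835 to 3544 CPM at 6 h and 9.23 to 13.3 CPM at 24 h, and FN1, a matrix protein gene of the mesenchyme list, 121 to 643 CPM and 7456 to 8970 CPM. The labels name 1 line and no stock or passage, so a difference of cell stock between the 6 h and 24 h libraries and the time itself cannot be told apart.

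The promoters show the element through which these genes are known to answer interferon. RefSeq promoter sequences (GRCh38.p14, 250 bases before to 50 bases after the start) matched 34 of the 42 genes, 1 of them under another symbol (DDX58 as RIGI). The core of the ISRE was searched as GAAANNGAA and GAS as TTCNNNGAA, on both strands, with overlapping matches counted; a match to one motif can share bases with a match to the other. The ISRE core was in 16 of 20 promoters of interferon-stimulated genes, in 1 of 14 promoters of factors (SOCS1) and in 8.29% of all 27305 promoters of the table. GAS was in 5 of 20, 2 of 14 (IRF1 and IRF9) and 7.88%. The stretches below are the 170 bases before the start, 5′ to 3′ on the gene's strand, with ISRE core matches that lie wholly within them in capitals. A further match of IFIT5, from -3 to 5 around the start, runs past the end of its stretch and is not marked. They are shown because IFITM3 and BST2 were among the genes lower at 24 h, and IFIT3, IFIT5 and IFIH1 among those higher. The positions are chr11:320861-321030 on the minus strand for IFITM3, chr19:17405631-17405800 minus for BST2, chr10:89327827-89327996 plus for IFIT3, chr10:89414398-89414567 plus for IFIT5 and chr2:162318685-162318854 minus for IFIH1.
IFITM3: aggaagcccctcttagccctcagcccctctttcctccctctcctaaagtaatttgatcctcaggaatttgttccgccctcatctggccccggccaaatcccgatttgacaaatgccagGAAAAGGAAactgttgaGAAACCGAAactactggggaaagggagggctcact
BST2: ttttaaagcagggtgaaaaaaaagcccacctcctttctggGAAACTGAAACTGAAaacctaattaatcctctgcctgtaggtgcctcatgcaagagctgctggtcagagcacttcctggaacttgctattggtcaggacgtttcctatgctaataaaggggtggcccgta
IFIT3: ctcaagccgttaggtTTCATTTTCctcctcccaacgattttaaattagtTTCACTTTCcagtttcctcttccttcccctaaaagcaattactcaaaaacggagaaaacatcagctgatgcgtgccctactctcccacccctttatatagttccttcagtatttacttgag
IFIT5: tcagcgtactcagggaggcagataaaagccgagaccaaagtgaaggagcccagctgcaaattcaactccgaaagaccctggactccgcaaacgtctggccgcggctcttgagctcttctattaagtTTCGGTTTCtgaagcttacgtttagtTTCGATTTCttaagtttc
IFIH1: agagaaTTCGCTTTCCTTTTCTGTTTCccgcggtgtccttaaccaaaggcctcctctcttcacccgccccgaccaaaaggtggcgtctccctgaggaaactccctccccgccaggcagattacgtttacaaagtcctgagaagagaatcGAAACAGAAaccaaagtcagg
IFITM3 and BST2 each carry 2 matches, the BST2 pair overlapping, and IFIH1 carries 4, of which 3 overlap. Of the interferon-stimulated genes with a promoter in the table, 6 of 8 that were higher at 24 h in both treatments and 3 of 5 that were lower in both held the ISRE core. GAS was in 0 of these 8 and in 3 of these 5. The falls of ISG15 and IFI35, among the 5, were not called with offsets for GC content and length. A match is a run of letters and not evidence of a bound factor.

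The genes of the receptors, kinases and STAT factors had counts in every library, while IRF9 at 6 h and the interferon genes at both times were nearly silent. Of 21 interferon genes looked up, 20 had no count in any library, which allows at most 3 counts, or 0.366 to 1.19 CPM by library. The exception, IFNE, had 2 to 8 counts per library. Levels are given as CPM, counts scaled to a common library size (TMM-scaled CPM). Divided by exon length, the highest members at 6 h with vehicle were IFITM3 (138 CPM per kb), BST2 (81.1 CPM per kb), IFITM2 (56.0 CPM per kb) and STAT5B (33.0 CPM per kb). At 24 h, in libraries with the vehicle label, they were JAK1 (26.7 CPM per kb), IFNGR2 (25.5 CPM per kb), IFITM3 (24.8 CPM per kb) and STAT2 (22 CPM per kb). The factors summed to 871 to 1057 CPM at 6 h and 1005 to 1044 CPM at 24 h, and the interferon-stimulated genes to 482 to 522 CPM and 339 to 407 CPM. A low-count filter kept 36 of the 42 genes for testing, 18 of each class. SOCS1, IFITM1, OAS2, IFI27, IFI44L and CXCL10, with at most 20 counts in any library, were not tested. In such bulk RNA, fewer cells that express a gene and less RNA per cell cannot be told apart.

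**Figure D1:**
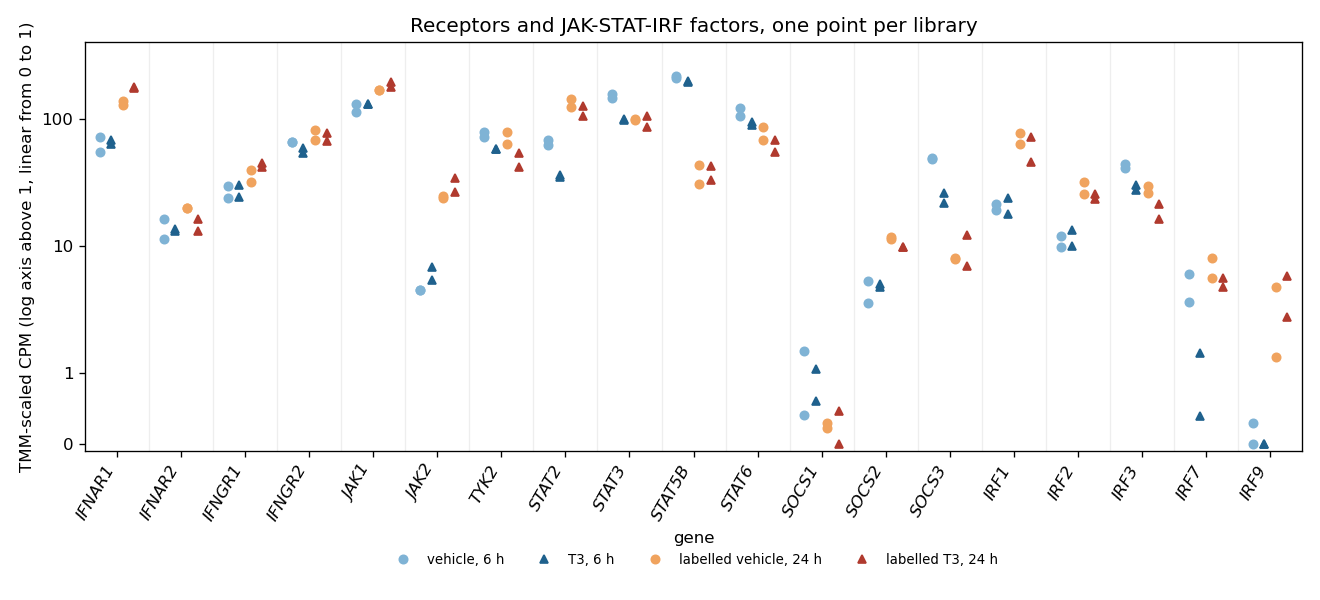
TMM-scaled CPM (log axis above 1, linear from 0 to 1) of the 19 receptors, kinases, STAT, SOCS and IRF genes, 1 point per library, coloured by group. STAT2, STAT3 and SOCS3 with T3 at 6 h lie below both vehicle libraries of 6 h, and STAT5B lies at 31.0 to 43.4 CPM at 24 h against 196 to 216 CPM at 6 h.

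The first comparison asks what 6 h of T3 did to these genes. Among the 18 tested factors 4 fell and none rose, where 7.64% of all 14611 tested genes changed in either direction (3.78% higher and 3.86% lower). They were STAT2, STAT3, the feedback inhibitor SOCS3 and IRF7, the factor that amplifies type I interferon production. Among the 18 tested interferon-stimulated genes none passed the test of edgeR (quasi-likelihood, Benjamini-Hochberg adjusted p under 0.05), 1 had an unadjusted p under 0.05 (23.2% of all tested genes had), and DESeq2 called 0. The median log2 fold change was -0.16 for the factors and -0.14 for the interferon-stimulated genes, beside -0.02 for all tested genes.

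STAT2, the STAT specific to type I and III interferon signalling, lies at chr12:56341597-56360155. It measured 68.5 and 61.9 CPM with vehicle and 36.1 and 35.1 CPM with T3. The groups did not overlap, and the fitted log2 fold change was -0.88 ± 0.16 (SE; edgeR adjusted p = 0.00446). STAT3, which carries signals of the interleukin 6 family, measured 158 and 145 CPM with vehicle and 98.8 and 99.4 CPM with T3, a log2 fold change of -0.61 ± 0.14 (edgeR adjusted p = 0.0127).

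SOCS3, a STAT3 target that blocks JAK kinases, was at 48.6 and 48.9 CPM with vehicle and at 26.3 and 21.8 CPM with T3. Its log2 fold change was -1.03 ± 0.25 (edgeR adjusted p = 0.0182). Both libraries with T3 were near one another and below both with vehicle. IRF7 measured 6.00 and 3.67 CPM with vehicle and 1.44 and 0.401 CPM with T3, a log2 fold change of -2.59 ± 0.67 (edgeR adjusted p = 0.0273) that rests on 29 and 6 counts per group. No factor (0) was called once any of 3 libraries of 6 h (vehicle replicate 1 and both with T3) was left out, and SOCS3 was also lost without vehicle replicate 2. The value of IRF7 was -3.53 without T3 replicate 1 and -1.75 without T3 replicate 2. With offsets for GC content and length the calls of SOCS3 (-0.83, adjusted p = 0.0724) and IRF7 (-2.25, 0.0727) were lost.

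The other factors gave no call at 6 h. The receptors lay within log2 fold changes of -0.22 (IFNGR2) and 0.07 (IFNAR1). JAK1 measured 114 and 130 CPM with vehicle and 132 and 132 CPM with T3, and TYK2 had a log2 fold change of -0.38 ± 0.17 (edgeR adjusted p = 0.189). IRF3, the factor that starts interferon transcription after viral sensing, had -0.55 ± 0.20 (edgeR adjusted p = 0.109). IRF1 stayed at 18 to 23.8 CPM over the 4 libraries of 6 h.

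At 24 h, 1 factor and 1 interferon-stimulated gene were lower in the libraries labelled T3 and none was higher, where 13.3% of all tested genes changed (5.58% higher and 7.76% lower). The shares among the members, 1 of 18 in each class, were below this background. The factor was TYK2, the kinase of the type I receptor, and the interferon-stimulated gene was IFITM3, a membrane protein that blocks viral entry. The median log2 fold change was -0.14 for the factors, -0.28 for the interferon-stimulated genes and -0.01 for all tested genes.

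IFITM3 lies at chr11:319669-327537 on the minus strand. With the vehicle label it measured 28.8 and 38.1 CPM at 24 h, and with the T3 label 14.8 and 13.2 CPM. The groups did not overlap, and the log2 fold change was -1.27 ± 0.17 (edgeR adjusted p = 0.000426), a level 2.41-fold lower. At 6 h the same gene measured 190 and 181 CPM with vehicle and 167 and 165 CPM with T3, a log2 fold change of -0.16 ± 0.14 (edgeR adjusted p = 0.535). The call at 24 h was kept under every alternative that was run.

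The responses of IFITM3 at the 2 times were compared directly, as the change at 24 h minus the change at 6 h. The difference was -1.11 ± 0.22 on the log2 scale (edgeR adjusted p = 0.0126). IFITM3 was the only member called in this comparison, where 1.84% of all tested genes were called (0.849% with a higher and 0.992% with a lower response at 24 h). The call was lost with GC and length offsets (-0.88, adjusted p = 0.0541) and when vehicle replicate 2 or either T3 library of 6 h was left out, with differences of -1.14, -1.13 and -1.13. The direction of this difference rests on the group labels at 24 h, where KLF9 and HR were lower with the T3 label. The differences of the 4 genes that fell at 6 h were 0.67 for STAT2 (edgeR adjusted p = 0.121), 0.55 for STAT3 (0.146), 1.33 for SOCS3 (0.0784) and 2.21 for IRF7 (0.177). None of these passed the threshold, so their responses were not shown to differ between the times.

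TYK2 measured 79.4 and 64.0 CPM at 24 h with the vehicle label and 53.9 and 42.3 CPM with the T3 label, with a log2 fold change of -0.58 ± 0.16 (edgeR adjusted p = 0.026). Its groups did not overlap, but the call was lost in DESeq2 (adjusted p = 0.0568), with GC and length offsets (-0.08, 0.851), in a fit of the 4 libraries of 24 h alone (0.0831), and without T3 replicate 2 of 6 h, vehicle replicate 1 of 24 h or T3 replicate 2 of 24 h. IFNAR1 had the largest positive value among the receptors, 130 and 139 CPM against 175 and 179 CPM (log2 fold change 0.39 ± 0.13, edgeR adjusted p = 0.0611). STAT2 and STAT3 overlapped between the groups at 24 h, with log2 fold changes of -0.21 and -0.06.

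**Figure D2:**
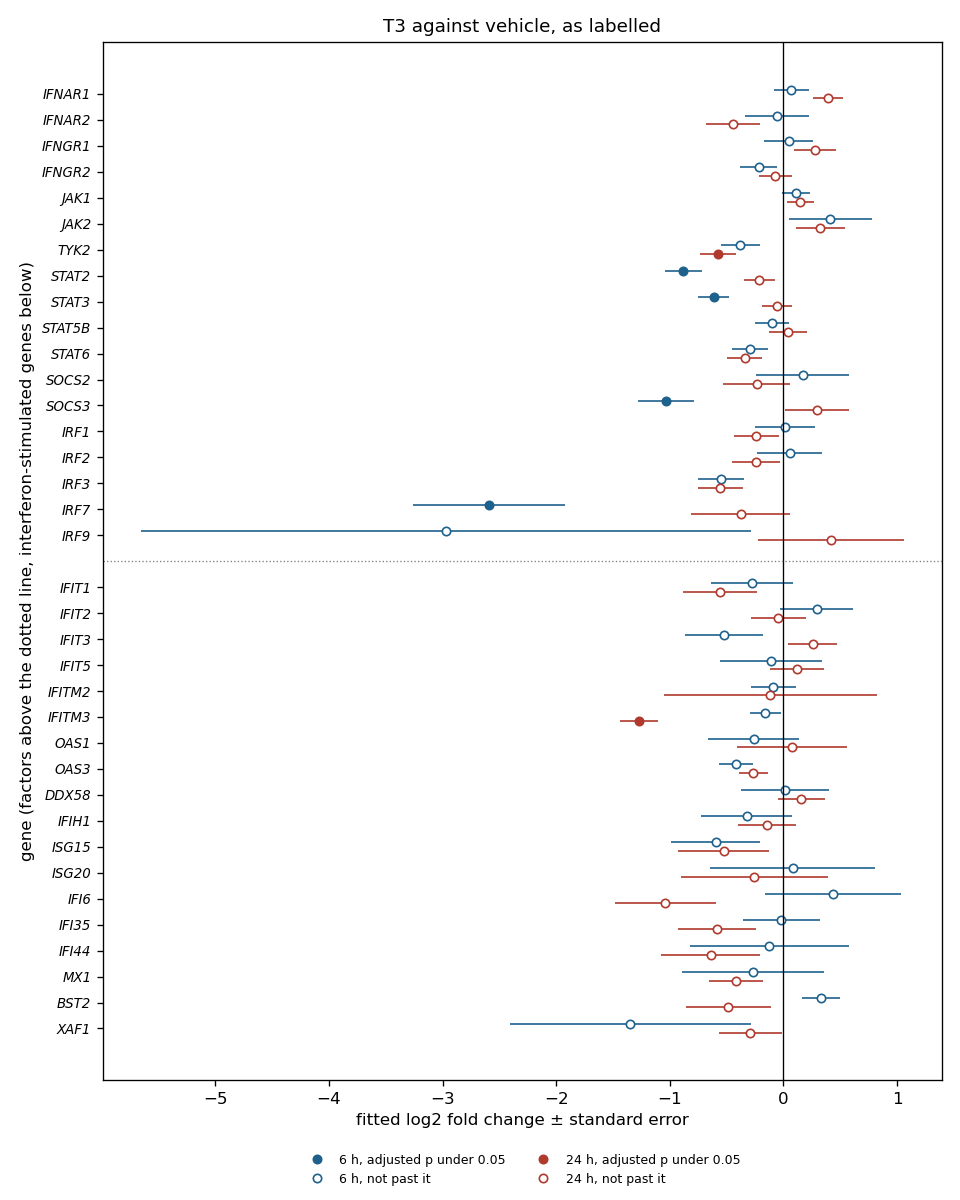
Fitted log2 fold change of T3 against vehicle, as labelled, with its standard error, for the 36 tested members at 6 h (blue) and at 24 h (red). Filled points passed an adjusted p of 0.05, and these are STAT2, STAT3, SOCS3 and IRF7 at 6 h and TYK2 and IFITM3 at 24 h, all below 0.

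The largest changes lay between the times, where "rose" and "fell" say only that the 24 h libraries were above or below those of 6 h, whatever else than time sets them apart. In the libraries labelled vehicle, 8 factors were higher and 5 lower at 24 h than at 6 h, and 10 interferon-stimulated genes were higher and 6 lower, of 18 tested in each class. With T3 the counts were 10 and 4 among the factors and 9 and 6 among the interferon-stimulated genes. These are to be read against backgrounds of 64.5% with vehicle (31.9% higher and 32.6% lower) and 70.4% with T3 (35.1% and 35.2%), since most of the transcriptome differed between the times. Median log2 fold changes were 0.47 and 0.58 for the factors (0.58 also with IRF9 at its lower bound) and 1.07 and 0.58 for the interferon-stimulated genes, beside 0.03 and 0.02 for all tested genes. The same direction was called in both treatments for 8 higher and 4 lower factors and for 9 higher and 6 lower interferon-stimulated genes. The share of reads in genes, and the summed markers of mesenchyme (mostly FN1) and of liver and gut (mostly CPS1), moved with time. Their part in these differences was not tested.

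Of the receptors, IFNAR1 rose from 54.6 and 72.5 CPM to 130 and 139 CPM with vehicle (log2 fold change 1.09 ± 0.15, edgeR adjusted p = 5.31e-06) and by 1.42 ± 0.14 with T3. IFNGR1 passed with T3 (0.66, edgeR adjusted p = 0.00562) and had 0.43 with vehicle (0.0761), and its call was lost with GC and length offsets (0.17, adjusted p = 0.402) and without T3 replicate 1 of 6 h. IFNAR2 and IFNGR2 passed in neither treatment. Among the kinases JAK2 rose most, from 4.50 and 4.48 CPM to 24.1 and 24.6 CPM with vehicle, a log2 fold change of 2.43 ± 0.30 (edgeR adjusted p = 1.89e-06), and by 2.34 ± 0.26 with T3 (1.67 and 1.58 with GC and length offsets). JAK1 rose by 0.47 and 0.51. The call with vehicle was lost with GC and length offsets (0.21, adjusted p = 0.0991) and without vehicle replicate 1 of 6 h. TYK2 passed in neither treatment, with values of -0.09 and -0.28, but offsets for GC content and length gave 0.71 and 0.73, both past the threshold.

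The STAT genes moved in opposite directions. STAT2 rose by 1.04 ± 0.15 with vehicle and by 1.7 ± 0.15 with T3. STAT5B, which answers growth hormone and prolactin, measured 216 and 210 CPM with vehicle and 196 and 201 CPM with T3 at 6 h, against 43.4 and 31.0 CPM and 42.8 and 33.1 CPM at 24 h. It was lower at 24 h in every library, with log2 fold changes of -2.53 ± 0.17 and -2.39 ± 0.16 (edgeR adjusted p = 1.04e-09 and 8.21e-10). STAT6, which answers interleukin 4, fell by 0.54 and 0.59 on the log2 scale, and these calls were lost with GC and length offsets (-0.14 and -0.07, adjusted p = 0.413 and 0.696). STAT3 fell with vehicle (-0.60 ± 0.13, edgeR adjusted p = 0.000818) and had -0.05 ± 0.13 with T3 (edgeR adjusted p = 0.743).

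Among the feedback inhibitors, SOCS3 fell from 48.6 and 48.9 CPM to 8.10 and 7.89 CPM with vehicle (-2.61 ± 0.27, edgeR adjusted p = 2.27e-07) and from 26.3 and 21.8 CPM to 6.95 and 12.3 CPM with T3 (-1.28 ± 0.26, edgeR adjusted p = 0.000287). With GC and length offsets the value was -1.69 with vehicle and -0.11 with T3, the latter not called (0.719). SOCS2, an inhibitor of growth hormone signalling, rose by 1.40 and 1.00; the calls were lost without vehicle replicate 1 of 6 h in the former, and without either T3 library of 6 h or in DESeq2 (0.059) in the latter.

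IRF1, which activates many interferon-stimulated genes, rose from 19.2 and 21.6 CPM to 77.0 and 63.9 CPM with vehicle (1.79 ± 0.24, edgeR adjusted p = 5.1e-06) and by 1.54 ± 0.23 with T3. IRF2, which competes with IRF1 for its sites, rose by 1.40 and 1.10. IRF9, the DNA-binding subunit beside STAT2, had 1 count in the 6 h vehicle libraries against 38 counts at 24 h, a 19.7-fold ratio (95% counting interval 3.33 to 798). With T3 it had 0 counts against 62, which is at least 10.6-fold higher at 24 h with 3 counts over the group as the floor. The call of IRF9 with vehicle was lost without vehicle replicate 2 of 6 h or of 24 h, and its fitted value ran from 2.81 without replicate 2 of 24 h to 7.06 without replicate 1 of 6 h, where the remaining 6 h library has 0 counts. IRF7 rose with T3 (2.68 ± 0.62, edgeR adjusted p = 0.00102), and with vehicle it had 0.46 ± 0.48 (edgeR adjusted p = 0.411, not past the threshold). The rise was 4.68 with GC and length offsets, 3.62 without T3 replicate 1 of 6 h and 1.84 without T3 replicate 2 of 6 h. IRF3 fell by 0.62 and 0.63 on the log2 scale, but with GC and length offsets its values were 0.11 and 0.31, neither called.

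**Figure D3:**
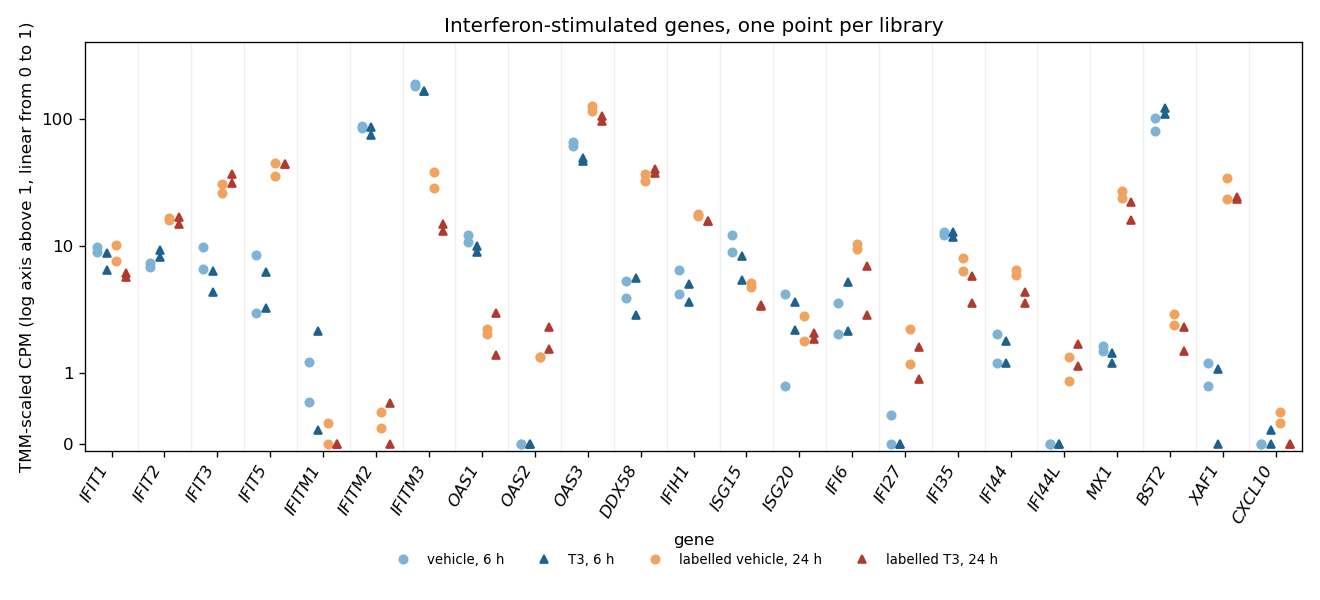
TMM-scaled CPM (log axis above 1, linear from 0 to 1) of the 23 interferon-stimulated genes, 1 point per library, coloured by group. IFITM2, IFITM3, OAS1 and BST2 lie lower at 24 h in every library, and IFIT3, IFIT5, DDX58, IFIH1, MX1 and XAF1 lie higher.

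The interferon-stimulated genes moved in both directions, within some families too. IFITM2, IFITM3 and BST2 (tetherin), whose proteins act at membranes on entering and budding virus, fell. IFITM2, at chr11:307631-315272, measured 87.4 and 85.6 CPM with vehicle and 75.0 and 86.9 CPM with T3 at 6 h. At 24 h it measured 0.225 and 0.447 CPM in the libraries labelled vehicle and 0 and 0.576 CPM in those labelled T3. This left 4 and 5 counts per group against 501 and 642 at 6 h, and the log2 fold changes were -7.82 ± 0.38 and -7.85 ± 0.36 (edgeR adjusted p = 2.4e-11 and 6.91e-12). Offsets for GC content and length gave -6.98 and -6.81. The fitted values were -8.42 without vehicle replicate 2 of 24 h, -7.08 without T3 replicate 1 of 24 h and -11.5 without T3 replicate 2 of 24 h, where the remaining library has 0 counts.

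IFITM3 fell by 2.46 ± 0.15 on the log2 scale with vehicle and by 3.57 ± 0.16 with T3, and by 1.43 and 2.31 with GC and length offsets. IFITM1, not tested, had 1 to 6 counts per library at 6 h and 0 to 2 at 24 h. The IFITM genes are near-identical neighbours, reads that align to several places made up 47.6% to 67.4% of the counted reads, and the annotated spans of IFITM1 and IFITM2 end at the same base, so the counts of each single member are uncertain. BST2, at chr19:17402939-17405648, measured 101 and 80.7 CPM with vehicle and 121 and 109 CPM with T3 at 6 h, against 2.93 and 2.38 CPM and 2.32 and 1.5 CPM at 24 h. Its log2 fold changes were -5.11 ± 0.24 and -5.93 ± 0.24 (edgeR adjusted p = 1.77e-11 and 1.4e-12), and no 24 h library came near a 6 h library. With GC and length offsets the values were -3.97 and -4.55.

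Of the 4 IFIT genes, whose proteins bind viral RNA, 3 rose. IFIT5 rose from 3 and 8.56 CPM to 45.5 and 35.9 CPM with vehicle (2.89 ± 0.34, edgeR adjusted p = 1.24e-06) and from 3.24 and 6.21 CPM to 43.9 and 44.0 CPM with T3 (3.11 ± 0.32, edgeR adjusted p = 1.65e-07). These rises were 2.17 and 2.37 with GC and length offsets. With vehicle the rise was 2.24 without replicate 1 and 3.75 without replicate 2 of 6 h, and with T3 it was 3.74 without replicate 2 of 6 h. IFIT3 rose by 1.82 and 2.61, and IFIT2 by 1.20 and 0.86. The call of IFIT2 with T3 was lost with GC and length offsets (0.47, adjusted p = 0.116) and without T3 replicate 2 of 6 h. IFIT1 was not called, at -0.11 and -0.39.

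The genes of both cytosolic RNA sensors rose. DDX58 measured 3.90 and 5.30 CPM with vehicle and 2.88 and 5.61 CPM with T3 at 6 h, against 37.1 and 32.6 CPM and 40.3 and 37.3 CPM at 24 h. Its log2 fold changes were 2.94 ± 0.30 and 3.09 ± 0.28 (edgeR adjusted p = 2e-07 and 2.64e-08), 2.35 with vehicle under GC and length offsets and 3.73 with T3 without T3 replicate 2 of 6 h. IFIH1 rose by 1.74 ± 0.33 and 1.92 ± 0.32.

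The OAS genes, whose enzymes make the second messenger that activates RNase L, moved in both directions. OAS3 rose from 61.2 and 66.0 CPM to 115 and 127 CPM with vehicle (0.93 ± 0.14) and by 1.08 ± 0.14 with T3. OAS1 fell from 10.8 and 12.2 CPM to 2.03 and 2.23 CPM with vehicle (-2.41 ± 0.46, edgeR adjusted p = 0.000188) and from 9.01 and 10.0 CPM to 1.39 and 2.99 CPM with T3 (-2.07 ± 0.43, edgeR adjusted p = 0.00037; -2.77 without T3 replicate 2 of 24 h). OAS2, not tested, had 0 counts in all 6 h libraries and 6 to 20 at 24 h, at least 2.59-fold and 5.12-fold higher with vehicle and T3.

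MX1, a GTPase that traps viral components, measured 1.5 and 1.63 CPM with vehicle and 1.44 and 1.20 CPM with T3 at 6 h, against 23.9 and 27.2 CPM and 16.1 and 22.1 CPM at 24 h. Its log2 fold changes were 4.02 ± 0.39 and 3.87 ± 0.38 (edgeR adjusted p = 1.16e-07 and 9.33e-08). XAF1, a pro-apoptotic interferon-stimulated gene, measured 1.20 and 0.815 CPM with vehicle and 1.08 and 0 CPM with T3 at 6 h, against 23.6 and 34.4 CPM and 23.5 and 24.3 CPM at 24 h. It rose by 4.79 ± 0.49 with vehicle (edgeR adjusted p = 2.38e-07). With T3 the rise (edgeR adjusted p = 5.51e-08) rests on 3 counts at 6 h against 363, a 62.0-fold ratio (95% counting interval 21.0 to 302), and its fitted value was 4.43 without T3 replicate 2 of 6 h and 9.98 without T3 replicate 1 of 6 h, where the remaining library has 0 counts.

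The 8 remaining members lay between 0 and 12.9 CPM (IFI35). IFI44 rose by 1.97 and 1.45, IFI6 rose with vehicle (1.76, edgeR adjusted p = 0.00841) and had 0.29 with T3 (0.615), and ISG20 was not called. The IFI44 calls were lost without vehicle replicate 1 of 6 h in the former. In the latter they were lost without either T3 library of 6 h, without vehicle replicate 1 of 24 h, without T3 replicate 2 of 24 h, and in 5 of the 8 other alternatives. The IFI6 call was lost without vehicle replicate 2 of 6 h, and its value was 2.93 with GC and length offsets. IFI44L had 0 counts at 6 h and 6 to 11 at 24 h, and IFI27 had 0 or 1 count at 6 h and 6 to 14 at 24 h. IFI35 fell by 0.81 and 1.37 on the log2 scale, and with GC and length offsets neither was called (0.16 and -0.14, adjusted p = 0.689 and 0.712). The call with vehicle was also lost in DESeq2, by library totals, without the filter, with the replicate block and with any 1 of 6 of the 8 libraries left out. ISG15, the ubiquitin-like modifier, measured 5.41 to 12.3 CPM over the 6 h libraries and 3.40 to 5.18 CPM over those of 24 h. Its log2 fold changes of -1.11 and -1.04 (edgeR adjusted p = 0.0194 and 0.0265) turned to 0.63 and 1.05 with GC and length offsets, the latter past the threshold (0.0234), so its direction depends on this setting. The call with vehicle was also lost in DESeq2 (0.053) and without vehicle replicate 1 of 6 h or either vehicle library of 24 h, and that with T3 without T3 replicate 2 of 6 h and in 3 further alternatives.

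**Figure D4:**
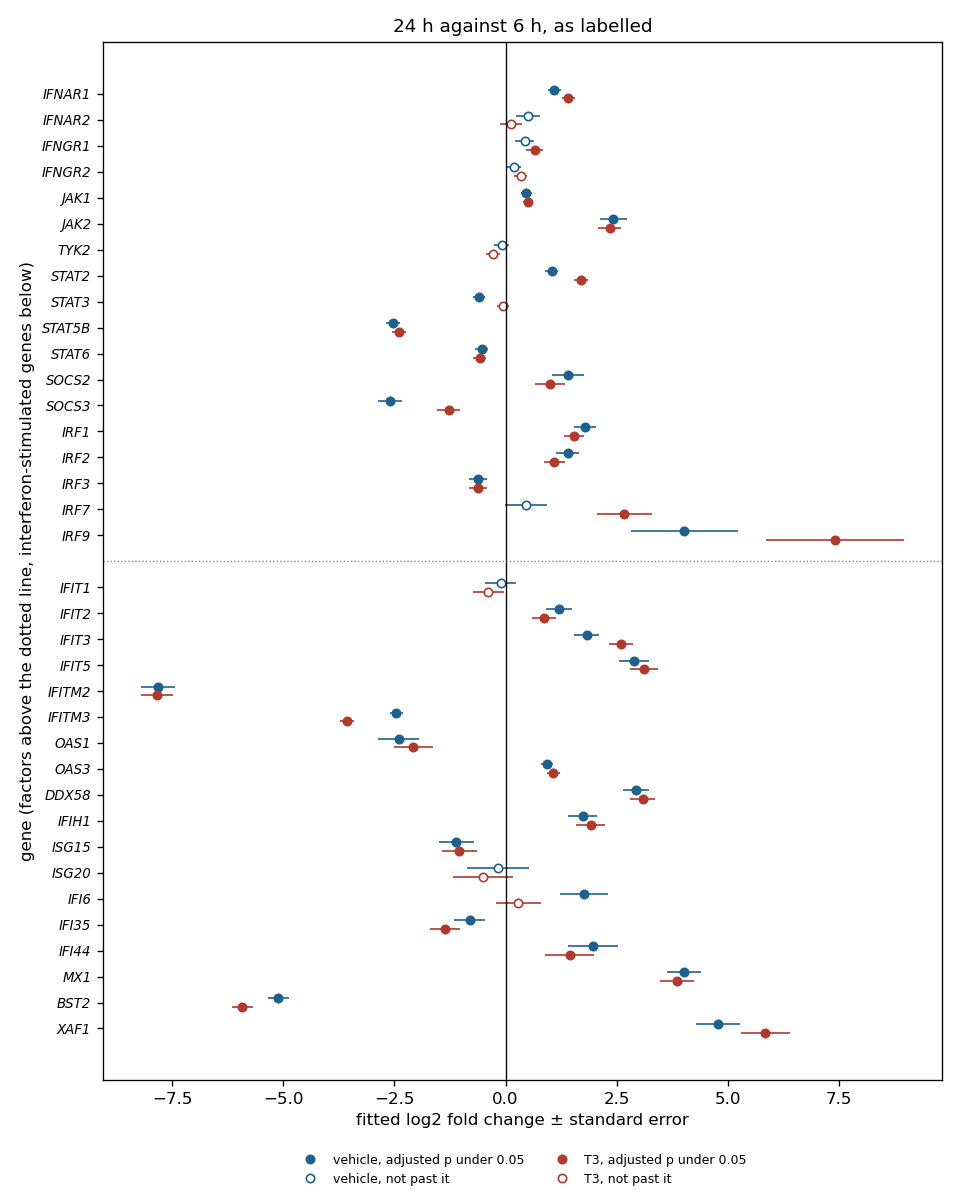
Fitted log2 fold change of 24 h against 6 h, as labelled, with its standard error, for the 36 tested members, in vehicle (blue) and T3 (red) libraries. Filled points passed an adjusted p of 0.05. IFITM2 and BST2 lie farthest to the left in both treatments, followed by IFITM3 with T3 and by SOCS3, STAT5B and IFITM3 with vehicle, and XAF1, MX1, DDX58 and IFIT5 lie to the right in both treatments; the value of IRF9 with T3 is fitted against 0 counts and is no measure of size.

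Further genes of the pathway were read from lists of receptors and regulators, nucleic acid sensors and other interferon-stimulated genes. Single calls in these lists were not followed through the alternatives. Over all tested genes the main fit called 1117 of 14611 for T3 at 6 h and 1950 at 24 h. With GC and length offsets, which could be given to 12577 of these genes, the calls were 459 (3.65%) and 169 (1.34%). Of 37 tested further interferon-stimulated genes, 5 rose and none fell with T3 at 6 h, where 3.78% of all tested genes rose. They include NMI (mean 4.79 to 11.5 CPM, log2 fold change 1.24 ± 0.31), the antiviral zinc finger protein gene ZC3HAV1 (88.9 to 152 CPM, 0.78 ± 0.15) and DDX60L (17.1 to 29.3 CPM, 0.78 ± 0.21). Their edgeR adjusted p were 0.0223, 0.00576 and 0.0370 in this order. At 24 h none was higher and 3 were lower in the libraries labelled T3, a share near the 7.76% of all tested genes that were lower. These were UBA7, the enzyme that activates ISG15 (13.8 to 6.39 CPM), LGALS3BP (121 to 79.6 CPM) and PML (46.2 to 31.1 CPM). Their edgeR adjusted p were 0.0352, 0.00802 and 0.0312 in this order. Between the times 27 rose and 5 fell with vehicle, and 25 rose and 6 fell with T3, with medians of 1.61 and 1.30. Of all tested genes 31.9% and 35.1% rose and 32.6% and 35.2% fell. GBP1, a guanylate-binding GTPase, had mean levels of 0.354 and 18.2 CPM at 6 h and 24 h with vehicle, and LY6E fell from 222 to 23.4 CPM.

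Of 28 further JAK-STAT genes, 3 rose and 1 fell with T3 at 6 h, 14.3% of them beside 7.64% of all tested genes. LIFR, the leukaemia inhibitory factor receptor, rose from a mean of 253 to 365 CPM (0.53 ± 0.15), SOCS4 from 32.0 to 46.9 CPM (0.55 ± 0.16) and PIAS2 from 46.9 to 72.0 CPM (0.63 ± 0.18). OSMR, the oncostatin M receptor, fell from 63.6 to 42.4 CPM (-0.58 ± 0.17). The edgeR adjusted p of these 3 rises and 1 fall lay between 0.0391 and 0.0410, close to the threshold. At 24 h SOCS4 (0.60 ± 0.12), LIFR (0.55 ± 0.16) and SOCS5 (0.61 ± 0.18) were higher in the libraries labelled T3, and PIAS4 (-0.87 ± 0.22) and IL4R (-0.76 ± 0.20) were lower. In this order, their edgeR adjusted p were 0.00551, 0.0353, 0.0362, 0.0168 and 0.0195. These 5 are 17.9% of the list, near the 13.3% of all tested genes. Of the 28 genes, OSMR alone was called for a response that differed between the times (0.94 ± 0.22, edgeR adjusted p = 0.0343). This is 3.57% of the list, where 1.84% of all tested genes were called. The other genes were not shown to respond alike, and the sign for OSMR rests on the group labels at 24 h. Of 12 tested sensing genes, TBK1, the kinase that activates IRF3, rose with T3 at 6 h (32.6 to 48.9 CPM, 0.58 ± 0.17, edgeR adjusted p = 0.0425). MAVS, the adaptor of DDX58 and IFIH1, fell (267 to 200 CPM, -0.41 ± 0.11, edgeR adjusted p = 0.0348). At 24 h none of this list was called. Of all tested genes 7.64% and 13.3% were called at 6 h and 24 h. Between the times 4 of the 12 sensing genes rose and 2 fell with vehicle, and 3 rose and 3 fell with T3. This is 50% of the list in each treatment, below the 64.5% and 70.4% of all tested genes, and its medians were 0.10 and 0.06. TICAM1 (-1.24 and -1.67) and TRIM25 (-1.09 and -0.90) fell with vehicle and with T3. TLR3, the endosomal sensor of double-stranded RNA, rose and had 0 to 5 counts per library at 6 h and 76 to 174 at 24 h.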

How the data were processed

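CASAVA 1.7, STAR 2.7, HTSeq, DESeq2 and build hg38 are named in the submitters' processing notes. Settings and counting strand: not given in the sources used here. Hence reads of overlapping or antisense genes cannot be told apart. Per the labels' protocols, ribosomal RNA was depleted from total RNA. The values deposited by the authors are raw read counts per gene, 1 file per library; the 5 summary rows (unassigned reads) were left out of library sizes and tests. Samples were grouped by their titles. From these counts edgeR 4.0.16 (R 4.3.3) kept genes by its expression filter, scaled by TMM and fitted all 8 libraries together with the robust quasi-likelihood test (4 residual degrees of freedom, biological coefficient of variation 13.1%), for 5 comparisons, with Benjamini-Hochberg adjustment over 14611 genes at 0.05. A standard error is the size of the log2 fold change divided by the root of F. Gene positions, lengths and GC content come from GENCODE 29, and counting intervals and floors (3 counts) cover counting error only.

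All 42 genes could be named; library values and full statistics were given for those called for T3 or its difference between times, and for the 5 largest non-overlapping rises and falls between times. From the further lists, up to 3 called genes in each direction with a mean of at least 1 CPM could be named. The members and lists were chosen with earlier results of these data known. On simulated counts for T3 at 6 h over 14031 genes, the test recovered 69% of 100 genes changed 2-fold and 90.9% of 99 changed 4-fold. The simulation gave every gene the same spread and all groups the same levels, apart from the planted changes. Those were placed only in genes above a minimum level. The real libraries differ between the times and vary unequally, so these shares need not hold for them. Alternatives were DESeq2 1.42.0, other scalings, no filter, a replicate block, GC and length offsets, the 4 libraries compared alone, and leaving out each library. Nothing from protein sequences was analysed here.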

Additional observations from a re-analysis of the deposited data

Results flagged for a closer look

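The response of IFITM3 to T3, as labelled, differed between the times in a test of the difference itself, by -1.11 on the log2 scale (24 h minus 6 h, edgeR adjusted p = 0.0126). All 4 libraries with T3 lay below the vehicle libraries of their time, as labelled, but the change of IFITM3 at 6 h was not called. The same test called KLF9 (-7.03) and HR (-4.96), the 2 hormone-responsive genes used to check the labels, both higher with T3 at 6 h and lower in the libraries labelled T3 at 24 h. The 6 h value of HR (0.77) lost its call when any 1 of the 4 libraries of 6 h was left out (adjusted p = 0.0807 to 0.187), with values of 0.69 to 0.90. Its difference between the times was -5.63 without T3 replicate 1 of 24 h. Its 24 h value of -4.19 moved to -4.85 when the first and to -3.60 when the second of the 24 h libraries labelled T3 was left out. The sign of each 24 h response given here holds only for the labels as they stand.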

How the results depend on the processing

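Of the 13 factors and 16 interferon-stimulated genes called between the times with vehicle, 8 and 12 kept their call and direction under every alternative, and of the 14 and 15 called with T3, 9 and 11 did. Of the calls for T3 only the fall of IFITM3 at 24 h did. The calls for T3 at 6 h rest on 2 libraries a group, and with 1 of them left out the remaining library is assumed to vary like the other groups. The groups did not vary alike. Chi-square per degree of freedom between the 2 libraries was 28.1 for vehicle at 24 h, as labelled. It was 7.27 for T3 at 24 h, and 4.09 and 2.69 for vehicle and T3 at 6 h. This measure was taken on raw counts and grows with depth as well as with spread. Depth differed between the groups, and its part in these values was not tested. The fit shares 1 spread over all 4 groups. Genes with few counts (IRF7, IRF9, XAF1 at 6 h, IFITM2 at 24 h) are limited by depth. The samples of a replicate number did not deviate together (correlations -0.04 to 0.10 between groups), so the numbers were not taken as pairs. With a replicate block 2 factors were called for T3 at 24 h, in place of 1, and 1 of the 117 values of single genes lost its call.

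Factors called for T3 at 6 h numbered 4, and 2 with GC and length offsets, 2 with these and the block, and 0 to 4 with a library left out. Interferon-stimulated genes called at 6 h numbered 0, and 1 in the 4 libraries alone. Factors called for T3 at 24 h numbered 1, and 0 in DESeq2, 0 with GC and length offsets with or without the block, 0 in the 4 libraries alone and 0 to 1 with a library left out. Interferon-stimulated genes called at 24 h ran from 1 to 2 with a library left out. For the difference of the T3 response, factors called numbered 0, and 1 without the filter, 1 with GC and length offsets with or without the block, and 0 to 1 with a library left out. Interferon-stimulated genes called there numbered 1, and 0 with GC and length offsets with or without the block and 0 to 1 with a library left out.

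Over all tested genes, calls for T3 at 6 h numbered 1117, and 459 with GC and length offsets (470 with the block), 2896 in the 4 libraries alone and 132 to 1682 with a library left out. At 24 h they numbered 1950, and 1246 in DESeq2, 169 with GC and length offsets (159 with the block), 702 in the 4 libraries alone and as few as 1132 with a library left out. For the difference they numbered 269, and 674 without the filter and 49 to 757 with a library left out. These counts are over different sets of genes. The main fit and DESeq2 tested 14611 genes, the fits with GC and length offsets 12577 and that without the filter 30107. In the 4 libraries alone 12234 genes were tested at 6 h and 14025 at 24 h, and 15034 to 16242 with a library left out. Scaling by library totals alone shifted the median of all genes by 0.12 between times with vehicle, 0.22 with T3 and 0.10 in the difference, and took the share of calls that were higher at 6 h from 49.5% to 26.1% and that of the difference from 46.1% to 63.8%.

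The sign of the log2 fold change turned in the following values, and the cause was not tested. Of them, IRF3, ISG15 and IFI35 between times were called before, and TYK2 and ISG15 (with T3) between times were called after; the rest passed the threshold in neither. GC and length offsets gave DDX58 -0.25 for T3 at 6 h. For T3 at 24 h they gave STAT3 0.020, IRF7 0.36, IFIT5 -0.25, IFITM2 0.15 and DDX58 -0.094. For 24 h against 6 h they gave TYK2 0.71, IRF3 0.11, ISG15 0.63 and IFI35 0.16 with vehicle, and TYK2 0.73, IRF3 0.31 and ISG15 1.05 with T3. For the difference of the T3 response they gave TYK2 0.020 and IFITM2 0.17. With the block added, the values were DDX58 -0.24 for T3 at 6 h, and STAT3 0.015, IRF7 0.38, IFIT5 -0.25, IFITM2 0.15 and DDX58 -0.094 for T3 at 24 h. Between times they were TYK2 0.71, IRF3 0.11, ISG15 0.62 and IFI35 0.15 with vehicle and TYK2 0.72, IRF3 0.31 and ISG15 1.06 with T3, and for the difference TYK2 0.0058 and IFITM2 0.18. Library totals alone gave DDX58 -0.082 for T3 at 6 h, TYK2 0.040 and STAT3 0.17 between times with vehicle and with T3, and IFITM2 0.090 for the difference, and DESeq2 gave DDX58 -0.015 for T3 at 6 h.

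With a library left out, values for T3 at 6 h ran over IRF9 -3.79 to 0, IFIT5 -0.75 to 0.78, IFITM2 -0.20 to 0.021, DDX58 -0.64 to 0.32 and XAF1 -5.48 to 0.068. For T3 at 24 h they ran over STAT3 -0.22 to 0.071, STAT5B -0.21 to 0.25, SOCS3 -0.21 to 0.62, IRF9 -0.24 to 1.64, IFIT5 -0.056 to 0.26, IFITM2 -3.79 to 0.64, OAS1 -0.63 to 0.47 and XAF1 -0.56 to 0.0095. Between times they ran over TYK2 -0.22 to 0.076 with vehicle and STAT3 -0.20 to 0.087 with T3. For the difference they ran over STAT5B -0.12 to 0.32, IFIT5 -0.69 to 0.86, IFITM2 -3.71 to 0.72, OAS1 -0.38 to 0.72, DDX58 -0.18 to 0.79, MX1 -0.43 to 0.036 and XAF1 -0.37 to 5.18.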
